A study of Mus musculus with 6 samples.

Results

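Respiratory complex I genes were examined in neonatal mouse heart cells kept in low oxygen with or without fibroblast growth factor 21 (FGF21), a secreted hormone that acts on metabolism. Members were the genes whose symbol starts with Nduf, taken from rows that the platform annotation ties to 1 symbol. For a gene with several rows, the row with the highest mean over the 6 arrays was used. This gave 42 of the 22180 genes tested: 34 subunit genes and 8 assembly factor genes (prefix Ndufaf). By limma, a linear model that shares the spread between replicates over all genes, 0 of 22180 genes passed a p adjusted over all genes under 0.05 (0%), and 0 of the 42 members did. At an adjusted p under 0.1 there were 28 genes (0.126%) and 0 members, and at an unadjusted p under 0.05 there were 2594 genes (11.7%).

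Complex I, the NADH:ubiquinone oxidoreductase of the inner mitochondrial membrane, takes electrons from NADH, passes them to ubiquinone and pumps protons. It is L-shaped. Its matrix arm holds the N module, which oxidises NADH, and the Q module, which reduces ubiquinone; its membrane arm holds the proton pumps. Core subunits, conserved from bacteria, carry the redox centres and the pumps, and those of the membrane arm are encoded by mitochondrial DNA. Accessory subunits surround and stabilise the core. Assembly factors build the enzyme in steps and are not part of the finished complex. Heart muscle is rich in mitochondria and depends on this chain for most of its ATP.

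The FGF21 group was 3 samples labelled as cardiomyocytes, from hearts of 1-day-old C57BL/6 mice (the growth protocol spells the strain C56BL/6), given FGF21 at 1 µg/ml during 12 h of hypoxia (2% oxygen, with CO2 at 5% and the balance nitrogen). The control group was 3 such samples in the same hypoxia without FGF21. Hypoxia was common to both groups, so its own effect was not analysed here. Cardiomyocytes had been enriched only by letting faster-attaching cells settle for a short time. The sample titles call the replicates biological, but the labels do not say whether they came from separate litters or pools of hearts. P-values therefore rest on sample-to-sample spread that could be technical in part. Total RNA of each sample was hybridised to 1 Affymetrix Mouse Gene 2.0 ST array.

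Values are the authors' log2 values from the robust multi-array average (RMA), and a difference of 1 is a doubling. Array medians over the genes lay between 6.17 and 6.21, and correlations between arrays between 0.993 and 0.997. The 8 cardiomyocyte markers lay between 7.18 and 13.18, with list means of 10.94 to 11.0035 for FGF21 and 10.95 to 11.12 for controls. The 7 fibroblast markers had list means of 11.11 to 11.17 with FGF21 and 11.13 to 11.16 in controls, so the cultures also held fibroblast RNA. Endothelial markers were lower with FGF21 for 6 of 7 genes, with list means of 7.41 to 7.64 against 7.75 to 7.96 in controls, and 5 of the 7, Pecam1, Cdh5, Kdr, Emcn and Erg, were lower at an unadjusted p under 0.05 (5.11% of all genes). The 5 leukocyte markers had list means of 8.10 to 8.23 with FGF21 and 8.05 to 8.12 without. At an unadjusted p under 0.05, Ptprc differed by 0.20 and Cd68 by -0.20, so the leukocyte markers did not move one way. The 4 smooth muscle markers had list means of 9.30 to 9.33 with FGF21 and 9.27 to 9.36 without, and Myh11 differed by 0.16 at that threshold. Of 4 red cell markers 1 had a row, Epb42, at 5.29 to 5.38 with FGF21 and 5.49 to 5.58 without (unadjusted p of 0.0085 by limma's fit across all genes). The part of these cell types in the complex I values was not tested, and in bulk RNA fewer cells of a type and less RNA per cell cannot be told apart.

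Members were mostly slightly higher with FGF21, and none passed the adjusted threshold. The log2 difference, FGF21 minus control, was above 0 for 32 of 42 members, against 47.8% of all genes tested. Its median was 0.08 over the members (quartiles 0.01 and 0.13) and -0.0056 over all genes. Single members ran from -0.12 for Ndufa11 to 0.27 for Ndufa2 and Ndufaf4. At an unadjusted p under 0.05, limma gave 6 members, all higher with FGF21: Ndufaf4, Ndufaf1, Ndufaf6, Ndufa2, Ndufa12 and Ndufb6. That is 14.3% of the members, against 6.59% of all genes in that direction and 11.7% in either. The lowest adjusted p of a member was 0.188, for Ndufaf4.

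These shares are closer to those of bright genes. When the genes were split by mean level into 5 bins, 28 members fell in the brightest bin and 9 in the next. In the brightest bin, 70.7% of genes were higher with FGF21, 14.1% were higher at an unadjusted p under 0.05, and the median difference was 0.05. Array levels of different genes cannot be ranked as transcript amounts, so brightness here describes the probe sets. With quantile normalization applied to the gene table again, the median of the members was 0.04 and 2 members were at an unadjusted p under 0.05, Ndufaf4 and Ndufaf6 (9.55% of all genes in either direction).

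**Figure D1:**
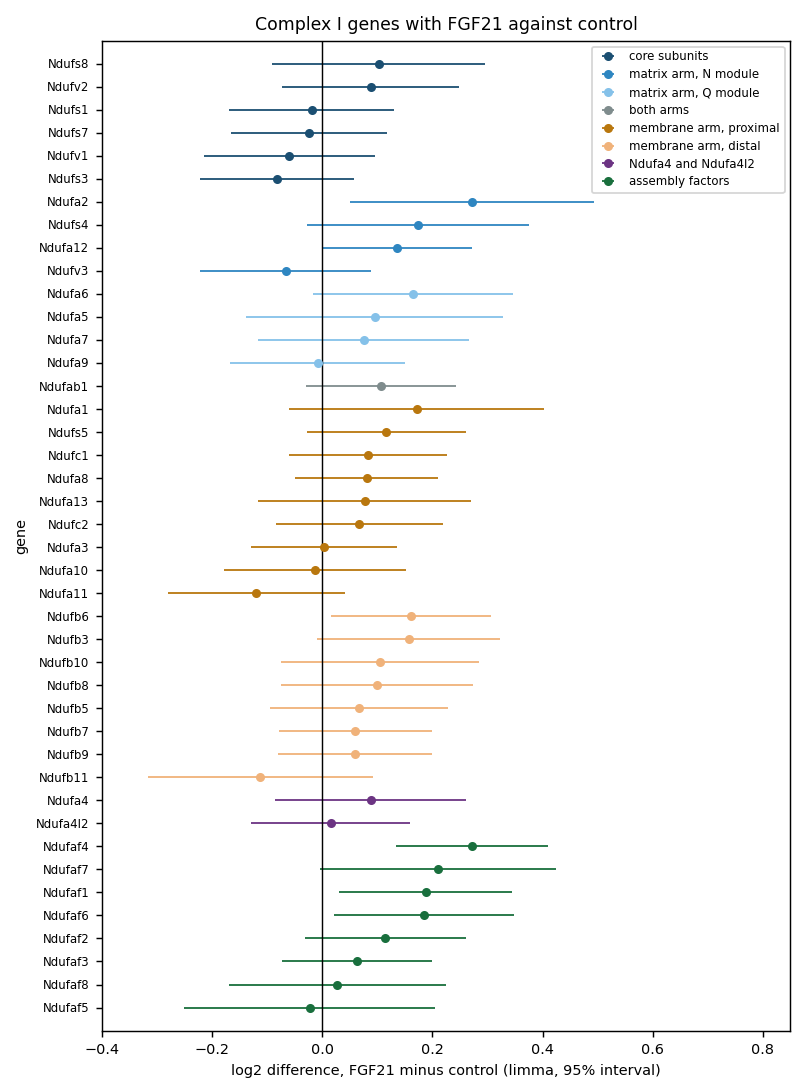
Log2 difference (FGF21 minus control) of the 42 complex I genes with limma's 95% interval, grouped by role. The core subunits lie on both sides of 0, most accessory subunits and assembly factors lie to the right of 0, and 36 of the 42 intervals include 0.

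The differences were also bounded. All 42 intervals at 95%, each for its own gene without adjustment, lay within a 1.5-fold change. The highest upper bound was 1.41-fold, for Ndufa2, and the lowest lower bound was 1.25-fold lower with FGF21, for Ndufb11. The groups did not overlap for 12 members that were higher with FGF21 (8.99% of all genes, 21.0% of the brightest bin) and for 1 that was lower, Ndufs3 (8.14% of all genes).

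Control replicate 1 stood apart from the other controls in these genes. Of the 42 members, 29 were lower in control replicate 1 than in both other controls, against 34.3% of all genes. For 26 members it was the lowest of all 6 arrays, against 18.3% of all genes and 29.0% of the brightest bin. Its median gap to the mean of the other controls was -0.09 over the members and -0.0036 over all genes. In the same array the cardiomyocyte list mean was 11.12, against 10.97 and 10.95 in control replicates 2 and 3, and the endothelial list mean was 7.96, against 7.84 and 7.75. Without control replicate 1, 29 members were still above 0, but the median of the members was 0.04, and 1 member, Ndufaf4, had an unadjusted p under 0.05 (9.99% of all genes in either direction). FGF21 replicate 2 was the highest array for 20 members, and without it the median was 0.06. At an unadjusted p under 0.05 there were then 2 members higher with FGF21, Ndufaf4 and Ndufaf1, and 1 lower, Ndufa11 (7.71% of all genes in either direction). Leaving out FGF21 replicate 3 gave 3 such higher members (8.52% of all genes in either direction). Leaving out control replicate 2 gave 11 (12.2% in either direction), and control replicate 3 gave 3 (9.15% in either direction). Ndufaf4 was among the higher members each time. Over all members, the means of replicates 1, 2 and 3 were 8.7039, 8.7572 and 8.7047 with FGF21 and 8.5703, 8.6983 and 8.6719 in controls. Replicate 1 was thus lowest and replicate 2 highest in both groups, though FGF21 replicates 1 and 3 were nearly equal. Whether equal replicate numbers mark matched samples cannot be told from the labels.

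**Figure D2:**
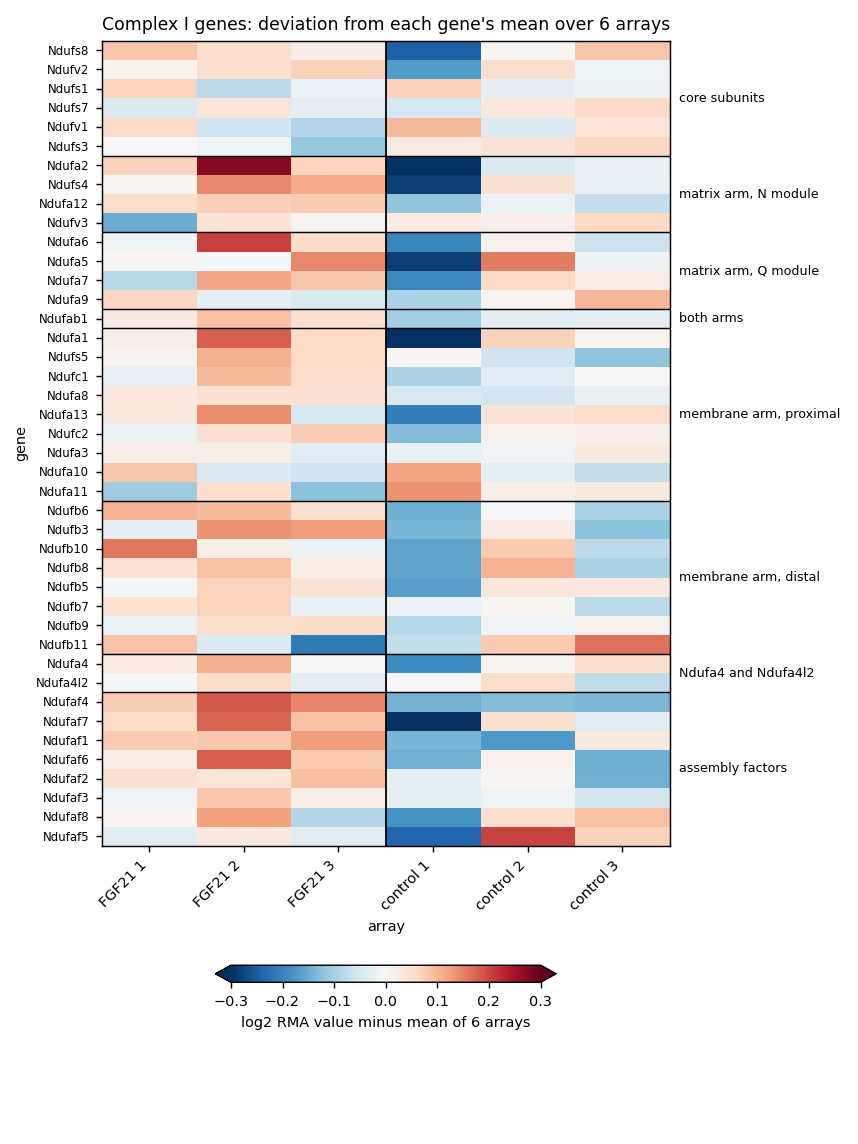
Log2 RMA value of each complex I gene (rows, grouped by role) in each array (columns, FGF21 left of control), as the deviation from that gene's mean over the 6 arrays. Colours saturate at 0.3 on either side. The column of control replicate 1 is the bluest, and it holds the lowest value of 26 of the 42 genes.

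No core subunit passed the test, and their differences lay on both sides of 0. The median difference of the 6 nuclear core genes analysed was -0.02, with 2 above 0 and 4 below. Ndufs3, a Q module subunit, was at 7.09, 7.08 and 6.98 with FGF21 and 7.12, 7.13 and 7.15 in controls. The groups did not overlap, but the difference was small at -0.08 ± 0.06 (SE; limma adjusted p of 0.642). Ndufv2, which carries an iron-sulfur cluster of the N module, was at 10.63, 10.67 and 10.69 with FGF21 and 10.45, 10.67 and 10.61 without, with control replicate 1 the lowest. Its difference was 0.09 ± 0.07 (SE), and 0.0264 without that array.

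Ndufs8, the iron-sulfur subunit next to the membrane arm, was at 9.95, 9.92 and 9.89 with FGF21 and at 9.63, 9.88 and 9.95 in controls. The difference of 0.10 ± 0.09 (SE) was 0.0064 without control replicate 1. Ndufv1, which binds FMN and NADH, was at 9.44, 9.32 and 9.29 with FGF21 and 9.48, 9.34 and 9.42 without, and the groups overlapped. Its difference was -0.06 ± 0.07 (SE), and -0.0274 without control replicate 1. Ndufs1, the largest subunit, with iron-sulfur clusters, and Ndufs7, which carries the last cluster before ubiquinone, had differences of -0.02 each, with 95% intervals of -0.17 to 0.13 and -0.17 to 0.12.

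Of the 8 accessory subunits of the matrix arm, 6 were above 0. Their median difference was 0.12 with all arrays and 0.0365 without control replicate 1. Ndufa2, a small N module subunit with a thioredoxin-like fold, was at 9.14, 9.34 and 9.13 with FGF21 and 8.72, 9.02 and 9.05 in controls. Every FGF21 array was above every control, with control replicate 1 lowest. The difference was 0.27 ± 0.10 (SE), or 1.21-fold, with an adjusted p of 0.344 by limma, and it was 0.17 without control replicate 1.

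Ndufa12, an N module subunit whose assembly paralog is Ndufaf2, was at 9.74, 9.75 and 9.76 with FGF21 and 9.56, 9.66 and 9.61 in controls. The FGF21 arrays were close together and above all controls, by 0.14 ± 0.06 (SE; limma adjusted p of 0.426). Its other row differed by 0.13. Ndufs4, needed for a stable N module and a cause of Leigh-like disease when lost in mice, was at 8.81, 8.95 and 8.92 with FGF21 and 8.52, 8.85 and 8.78 without. The groups overlapped, and the difference of 0.17 ± 0.09 (SE) became 0.08 without control replicate 1. Ndufv3 was the N module exception at -0.07 ± 0.07 (SE).

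In the Q module, Ndufa6, a LYR-motif subunit that anchors the acyl carrier protein, was at 10.18, 10.40 and 10.25 with FGF21 and 10.00, 10.21 and 10.13 in controls. The groups overlapped, with a difference of 0.17 ± 0.08 (SE; limma adjusted p of 0.466) that was 0.108 without control replicate 1. Ndufa5 and Ndufa7 had differences of 0.10 and 0.07, and without control replicate 1 these were -0.0218 and -0.00255. Ndufa9, at the junction of the arms, was at -0.0084. Ndufab1, the mitochondrial acyl carrier protein found in both arms, was at 7.80, 7.86 and 7.81 with FGF21 and 7.67, 7.74 and 7.74 without. Its groups did not overlap, and its difference was 0.11 ± 0.06 (SE).

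Of the 17 accessory subunits of the membrane arm, 14 were above 0, with a median of 0.08. Without control replicate 1 this median was 0.0449, above that of the matrix arm, so the order of these groups turned with that array, and their difference was not tested. The proximal part, next to the matrix arm, had a median of 0.08 over 9 genes, and the distal part, which carries the Ndufb genes, 0.08 over 8. Of the 17, 1 gene, Ndufb6, was higher at an unadjusted p under 0.05 (6.59% of all genes). It was at 9.19, 9.19 and 9.14 with FGF21 and 8.95, 9.09 and 8.998 in controls, so that all FGF21 arrays were higher. The difference was 0.16 ± 0.07 (SE; limma adjusted p of 0.385), and 0.13 without control replicate 1.

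Ndufb3, also of the distal part, was at 7.23, 7.39 and 7.38 with FGF21 and 7.12, 7.28 and 7.13 in controls. The lowest FGF21 array lay below the highest control, and the difference was 0.16 ± 0.07 (SE). Ndufs5, of the intermembrane space side, was dim, at 6.08, 6.17 and 6.12 against 6.07, 6.01 and 5.95 in controls. Its groups only just separated, by 0.12 ± 0.06 (SE). Ndufa11, a proximal membrane subunit, went the other way, at 9.99, 10.15 and 9.97 with FGF21 against 10.23, 10.11 and 10.12, a difference of -0.12 ± 0.07 (SE) with overlapping groups. Its other row differed by -0.17. Ndufa8 had little spread, at 9.69, 9.70 and 9.70 with FGF21 and 9.61, 9.60 and 9.64 in controls, and a difference of 0.08 ± 0.06 (SE). Its other row differed by 0.14. Ndufb9 was at 12.23 to 12.31 with FGF21 and 12.17 to 12.26 in controls, a difference of 0.06 that was 0.0306 without control replicate 1.

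Ndufa1, an X-linked proximal subunit, also had a low control replicate 1. It was at 9.48, 9.65 and 9.53 with FGF21 and 9.13, 9.53 and 9.47 in controls, with control replicate 1 far below the others. Its difference of 0.17 ± 0.10 (SE) was 0.0473 without that array. Of the other proximal subunits, Ndufc1, Ndufa13 and Ndufc2 differed by 0.08, 0.08 and 0.07 (0.0575, -0.0083 and 0.0198 without that array), Ndufa3 by 0.0031 and Ndufa10 by -0.01. Ndufa13 is also known as GRIM-19, a partner of STAT3. Of the other distal subunits, Ndufb10, Ndufb8, Ndufb5 and Ndufb7 differed by 0.10, 0.10, 0.07 and 0.06, each with overlapping groups. Without control replicate 1 these were 0.0522, 0.0449, 0.0023 and 0.0653. Ndufb11 was dim and lower with FGF21, at 5.45, 5.32 and 5.15 against 5.29, 5.45 and 5.53 in controls, with overlapping groups and a difference of -0.11 ± 0.09 (SE).

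Ndufa4 and its paralog Ndufa4l2 carry the prefix but are not stable complex I subunits. Ndufa4 belongs to complex IV, and Ndufa4l2 is a gene that hypoxia-inducible factors switch on and that lowers complex I activity in low oxygen. Ndufa4l2 was at 9.86, 9.92 and 9.84 with FGF21 and 9.87, 9.92 and 9.79 in controls, nearly the same in every array. Its difference of 0.02 ± 0.06 (SE; 95% interval -0.13 to 0.16) turned to -0.018 with quantile normalization applied again. Ndufa4 was at 11.29, 11.38 and 11.27 with FGF21 and 11.08, 11.27 and 11.32 without, with a difference of 0.09 ± 0.08 (SE) that was 0.016 without control replicate 1.

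Assembly factors had a median difference of 0.15, and 0.11 without control replicate 1. Of the 8 Ndufaf genes, 7 were above 0, and in 6 of them every FGF21 array was above every control (8.99% of all genes). At an unadjusted p under 0.05 there were 3, Ndufaf4, Ndufaf1 and Ndufaf6 (6.59% of all genes). This count was 1 without control replicate 1 or without FGF21 replicate 3. Ndufaf1, Ndufaf3, Ndufaf4, Ndufaf7 and Ndufaf8 lay in the second brightest of the 5 bins. There, 63.9% of genes were above 0, 14.3% had all FGF21 arrays above all controls, and 12.1% were higher at that threshold. Ndufaf2, Ndufaf5 and Ndufaf6 lay in dimmer bins, where these shares were lower. Ndufaf4, which works with Ndufaf3 on the Q module, was at 7.76, 7.87 and 7.83 with FGF21 and at 7.54, 7.56 and 7.55 in controls. The controls were nearly identical and all FGF21 arrays lay above them. The difference was 0.27 ± 0.06 (SE), or 1.21-fold (95% interval 1.10 to 1.33), with an adjusted p of 0.188 by limma. It stayed between 0.247 and 0.302 with any 1 array left out, and was 0.269 without control replicate 1.

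Ndufaf1, of the mitochondrial complex I intermediate assembly (MCIA) complex that builds the membrane arm, was at 7.86, 7.87 and 7.91 with FGF21 and 7.65, 7.61 and 7.81 in controls. The FGF21 arrays were above all controls, by 0.19 ± 0.07 (SE; limma adjusted p of 0.357). Ndufaf6, which resembles phytoene synthases and is needed early in assembly, was at 5.801, 5.96 and 5.86 with FGF21 and 5.64, 5.79 and 5.64 in controls. It was dim, below the lowest array median of 6.17, and the groups separated narrowly, by 0.18 ± 0.07 (SE; limma adjusted p of 0.377). Ndufaf7, a methyltransferase of the mitochondrial matrix, was at 7.86, 7.98 and 7.89 with FGF21 and 7.47, 7.85 and 7.77 in controls. Its difference of 0.21 ± 0.10 (SE) was 0.0981 without control replicate 1.

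The other assembly factors differed less. Ndufaf2 was 0.11 ± 0.07 (SE) higher with FGF21, and Ndufaf3, the partner of Ndufaf4, 0.06 ± 0.06. Ndufaf5, which hydroxylates Ndufs7, and its partner Ndufaf8 were at -0.02 and 0.03. Their controls spread widely, with Ndufaf5 at 5.12, 5.56 and 5.43.

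**Figure D3:**
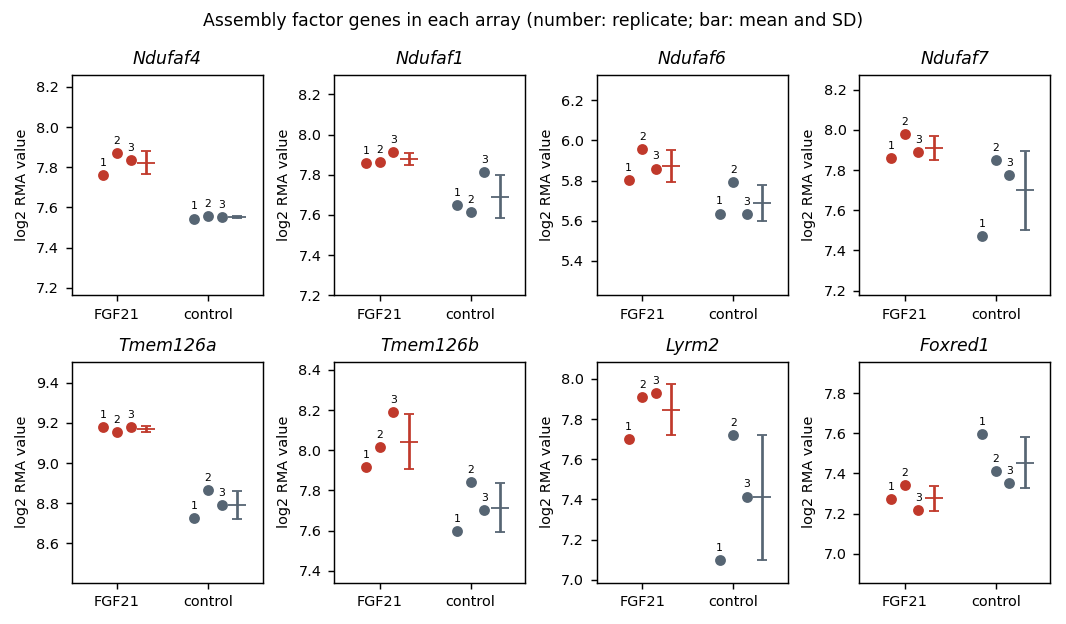
Log2 RMA values of 8 assembly factor genes in each array (points, numbered by replicate), with the mean and SD of each group (n = 3). Every panel spans the same number of log2 units. Ndufaf4 and Tmem126a show the clearest gap between the groups, while Lyrm2 and Ndufaf7 have a low control replicate 1.

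Complex I also needs assembly factors without the prefix, and 13 of the 14 listed had a row. Of these, 12 were above 0, with a median of 0.06. At an unadjusted p under 0.05 there were 3 higher with FGF21 (6.59% of all genes) and 1 lower (5.11%). Tmem126a, a factor of the distal membrane arm, was at 9.18, 9.15 and 9.18 with FGF21 and 8.73, 8.87 and 8.79 in controls. Its difference of 0.38 ± 0.06 (SE), 1.30-fold, was larger than that of any member, with an adjusted p of 0.113 by limma, and it was 0.343 without control replicate 1. Its paralog Tmem126b, a partner of Ndufaf1 in the MCIA complex, was at 7.92, 8.02 and 8.19 with FGF21 and 7.60, 7.84 and 7.70 in controls, a difference of 0.33 ± 0.09 (SE; limma adjusted p of 0.241).

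Of the other listed MCIA genes, Timmdc1 was 0.16 ± 0.08 (SE) higher, with every FGF21 array above every control (8.99% of all genes). Ecsit, Acad9 and Tmem186 had differences of 0.12, 0.02 and 0.01. Lyrm2, a LYR-motif protein that helps the N module, was at 7.70, 7.91 and 7.93 with FGF21 and 7.10, 7.72 and 7.41 in controls. Its difference of 0.44 ± 0.14 (SE; limma adjusted p of 0.291) had overlapping groups and was 0.28 without control replicate 1. Foxred1, a flavoprotein of mid-assembly, was lower with FGF21 in every array, at 7.27, 7.34 and 7.22 against 7.60, 7.41 and 7.35. The difference was -0.18 ± 0.08 (SE; limma adjusted p of 0.419), and -0.106 without control replicate 1.

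The mitochondrially encoded core subunits had small differences between the groups. All 7 had a row, with values from 11.11 to 13.73, which include the highest of any gene in the table. Whether the array understates changes at the top of its scale was not tested. All 7 differences were above 0, with a median of 0.04. ND3 was the exception in size, at 13.02, 13.04 and 13.02 with FGF21 and 12.76, 12.88 and 12.86 in controls. Its difference was 0.19 ± 0.06 (SE; limma adjusted p of 0.311). The other 6 lay between 0.01 and 0.05.

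**Figure D4:**
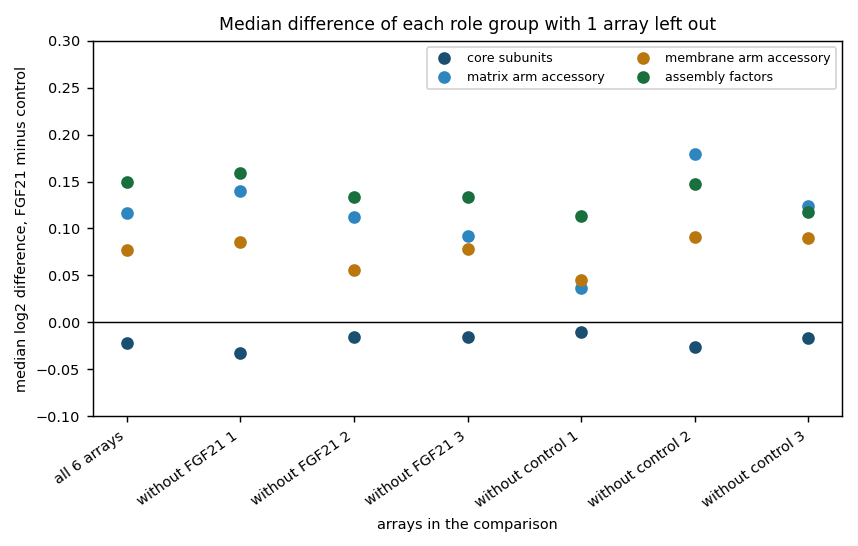
Median log2 difference (FGF21 minus control) of the genes of each role group with all 6 arrays and with each array left out in turn. The core subunits stay just below 0, the matrix arm accessory subunits are at 0.0365 without control replicate 1 and 0.116 with all arrays, and the assembly factors stay between 0.113 and 0.159.

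Listed genes that regulate the chain had differences on both sides of 0. Of 18 listed transcriptional regulators, 13 were above 0, with a median of 0.04 and a range from -0.25 for Ppara to 0.13 for Nrf1. At an unadjusted p under 0.05, 0 were higher and 1 was lower with FGF21 (5.11% of all genes), Ppara, the fatty acid-sensing receptor, at 5.92, 6.33 and 5.96 with FGF21 and 6.27, 6.35 and 6.35 in controls. Its groups overlapped, with a difference of -0.25 ± 0.10 (SE; limma adjusted p of 0.392). Ppargc1a, the PGC-1alpha coactivator, was at 8.29, 8.39 and 8.48 with FGF21 and 8.53, 8.19 and 8.34 in controls, Nrf1 differed by 0.13 ± 0.08 (SE), and Esrra by 0.07 ± 0.09. Of 13 measured hypoxia genes that act on the chain, of 14 listed, 6 were above 0, with a median of -0.02. Higd1a, a hypoxia-induced inner membrane protein, was the only 1 of them at an unadjusted p under 0.05, at 0.18 ± 0.07 (SE; limma adjusted p of 0.346).

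Promoters were read for letters that such factors bind, from RefSeq sequences of build GRCm38.p6 that span 250 bases before to 50 after each gene's start. Of the 42 members, 37 had a promoter in that table. The core letters of the NRF1 motif, GCATGCG on either strand (CGCATGC on the other), were in 5 of 37, or 13.5%, against 4.02% of 27025 genes. A GABP/ETS motif, CCGGAAGT, was in 1 of 37 (4.31% of genes), the HIF core ACGTG in 7 (21.8% of genes), and an extended ERR half-site, TCAAGGTCA, in 0 (0.466% of genes), each on either strand. These matches are letters in a window, not sites of binding. Ndufaf4, the member with the lowest p, holds the NRF1 letters at a pair of places, shown in capitals in its whole promoter (chr4:24897833-24898132, + strand).
Ndufaf4: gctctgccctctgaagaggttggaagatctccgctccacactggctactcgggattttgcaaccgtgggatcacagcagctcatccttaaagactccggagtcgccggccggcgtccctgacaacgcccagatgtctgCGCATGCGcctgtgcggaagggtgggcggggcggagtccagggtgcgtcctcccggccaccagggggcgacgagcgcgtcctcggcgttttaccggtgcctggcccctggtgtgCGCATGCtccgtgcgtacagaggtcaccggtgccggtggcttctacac

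The other 4 members with these letters are shown as a stretch of 20 bases on each side, 5′ to 3′ on the gene's strand, with the matching letters in capitals. Their log2 differences were 0.17 for Ndufa6, 0.08 for Ndufa8, -0.12 for Ndufa11 and -0.02 for Ndufaf5, beside 0.27 for Ndufaf4. A link between the letters and the differences was not tested.
Ndufa6 (chr15:82354348-82354394, - strand): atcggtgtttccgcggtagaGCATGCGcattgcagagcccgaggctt
Ndufa8 (chr2:36049320-36049367, - strand): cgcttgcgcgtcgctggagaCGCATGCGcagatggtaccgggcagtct
Ndufa11 (chr17:56717683-56717730, + strand): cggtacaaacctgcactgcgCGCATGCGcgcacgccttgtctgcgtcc
Ndufaf5 (chr2:140170643-140170690, + strand): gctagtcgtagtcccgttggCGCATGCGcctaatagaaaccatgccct

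Other mitochondrial gene groups, picked by symbol after the data were seen, are given beside complex I as a description. Subunits of complexes II to V had a median difference of 0.04 over 45 genes, with 25 above 0, 1 higher at an unadjusted p under 0.05 (6.59% of all genes) and 2 lower (5.11%). Mitochondrial ribosomal proteins had a median of 0.09 over 71 genes, with 59 above 0 (83.1%, against 47.8% of all genes). At that threshold 17 were higher (23.9%, against 6.59% of all genes) and 0 lower. Of the complex I members, 76.2% were above 0 and 14.3% were higher at that threshold. Control replicate 1 was the lowest array for 19 of the 45 and 33 of the 71. Whether complex I differs from either group was not tested.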

How the data were processed

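Total RNA of 6 samples was measured on 1 array each, 3 with FGF21 and 3 controls, grouped by sample title. The authors deposited log2 values made with RMA in the affy package and R 3.2.2, per the submitters' processing notes. The sources used here do not name a chip definition or build. Because RMA brings the arrays close to one distribution, a change shared by all genes is not visible. The distributions of the gene values were not identical, with array medians from 6.17 to 6.21.

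Of 41345 rows, 23521 had 1 symbol, which gave 22180 genes. Nduf symbols stood alone on 45 rows (42 genes, 3 with a second row) and with others on 6 rows, which were not named. Ndufb1, Ndufb2, Ndufb4 and Ndufs6 had no row of their own and were not analysed here. All 42 matched RefSeq by gene number.

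FGF21 minus control was fitted over all genes with limma 3.58.1 in R 4.3.3 (lmFit, eBayes, two-sided, no covariate, Benjamini-Hochberg over all genes, threshold 0.05). The fit was tested on simulated data. None of the array pairs was identical (0 pairs). The number of arrays limits the precision. Members and lists were chosen with earlier results of these data known, so lists are described without tests. Described in full are the 4 members of lowest p in each role group, all at an unadjusted p under 0.05, Ndufa4 and Ndufa4l2. Ndufa1, Ndufa8, Ndufab1, Ndufb9, Ndufb11 and Ndufaf5 were added after their values were seen. So were Ppargc1a, Nrf1, Esrra, Ecsit, Acad9, Tmem186 and Timmdc1. List genes at that threshold are named.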

Additional observations from a re-analysis of the deposited data

How the results depend on the processing

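No member passed an adjusted p under 0.05 by limma in any of 14 alternatives, nor under 0.1 with all arrays and genes; with dim genes left out (37 members kept) the lowest adjusted p was 0.0993. Over all genes, the count at an adjusted p under 0.05 was 0, but 58 with dim genes left out, 16 with a trended robust prior, 5 with quantile normalization applied again, and 2 with median centring, with array weights, with several rows of a gene averaged or without FGF21 replicate 1. Without 1 array, members above 0 numbered 29 to 34, their median difference ran from 0.0369 to 0.114, and the median from -0.033 to -0.0105 for core subunits, 0.0365 to 0.179 for matrix arm and 0.0449 to 0.0906 for membrane arm accessory subunits, and 0.113 to 0.159 for assembly factors. Members at an unadjusted p under 0.05 and higher with FGF21 ran from 1 to 11, lower ones from 0 to 1, and assembly factors at that threshold from 1 to 3. With quantile normalization applied again there were 2 higher, and the core median was -0.0668; why was not tested.

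Signs of some members turned. With quantile normalization applied again Ndufa3 was -0.00224, Ndufa4l2 -0.018, Ndufaf5 0.0238, Ndufaf8 -0.00848 and Ndufb7 -0.00515; with median centring Ndufa10 was 0.00716, Ndufa9 0.0117 and Ndufs1 0.000599; with array weights Ndufa3 was -0.00253. With 1 array left out, Ndufa10 ran from -0.0564 to 0.0431, Ndufa13 from -0.00828 to 0.123, Ndufa3 from -0.00724 to 0.0196, Ndufa4l2 from -0.0183 to 0.0462, Ndufa5 from -0.0218 to 0.196, Ndufa7 from -0.00255 to 0.135, Ndufa9 from -0.0578 to 0.039, Ndufaf5 from -0.148 to 0.0723, Ndufaf8 from -0.0556 to 0.0784 and Ndufs1 from -0.0576 to 0.0148.

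A replicate block gave 9 members at an unadjusted p under 0.05 (13.1% of all genes), against 6 without it (11.7%). Arrays with the same number had deviations from their group means that correlated at 0.103, 0.158 and 0.00653. Between arrays with different numbers these correlations were -0.16, 0.0416, -0.092, -0.0526, -0.0255 and 0.0218. The labels state no pairs, so the main fit had no block, and whether the numbers mark pairs cannot be told. All rows in the fit were added as an alternative after the data were seen, and gave 6 such members (9.07% of all genes).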
